A study of Homo sapiens with 4 samples.

Results

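Circular RNA from genes of the general transcription factor TFIID and from close partners of its TATA-binding protein is described here, with TAF2 as the leading gene. The set held every row of the deposited count table that named TAF1, TAF2, TAF3, TAF4, TAF5, TAF8, TAF15, TBP, TAF1B or BTAF1 as a host gene and was not of the antisense type. It came to 442 of 211599 rows, each row being 1 back-splice position. Of these, 413 had counts, 29 had 0 counts in all 4 libraries, and 67 had at least 10 counts, the minimum for testing. TAF2 leads the set because its circles were already known to differ between these 2 groups, so its values are given as a description with no test.

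All 4 libraries, controls included, were made from a radiation-resistant derivative of the established human breast cancer line MDA-MB-468, irradiated in fractions to 50 Gy in total. The control group (shCtrl) held 2 biological replicates that carried a control hairpin. The knockdown group (shHNRNPL) held 2 in which a stable short hairpin RNA targeted the splicing regulator HNRNPL, and the labels name 1 such hairpin, so the group stands for 1 knockdown line. The comparison asks which circles depend on HNRNPL. No row of a non-antisense circle with counts named HNRNPL, so the knockdown itself was not checked here.

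A circular RNA forms when a splice donor is joined to an acceptor upstream of it, which closes one or more exons into a ring. TFIID is the multi-subunit complex that recognises the core promoter and nucleates the assembly of RNA polymerase II. Its TATA-binding protein is TBP, and its other subunits are called TBP-associated factors, or TAFs. A level below is a count of circular reads for each 100000 counts in the library. Fitted log2 fold changes were scaled by edgeR's TMM method instead, so they can differ from ratios of levels, even in sign. The RNA was from bulk cultures, in which fewer cells and less RNA in each cell cannot be told apart. The reads were amplified and carried no molecular identifiers, so every interval given covers counting error only.

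Library totals ranged from 282737 counts in shHNRNPL replicate 1 to 556578 in shCtrl replicate 2. A count of 0 in a library allowed a level of up to 0.539 to 1.06. The library of shCtrl replicate 1 stood apart, with 19.7% of its counts in intron circles against 9.93% to 10.6% in the other 3. For the host genes in this set, intron circles made up 13.7% of counts in shCtrl replicate 1 and 3.35% to 6.02% in the others. The part played by this library in the results was not tested, beyond the values without it given with the results. Among markers of the epithelial line, circles of EPCAM were found in every library at 5.12 to 7.41, those of EGFR at 4.24 to 24.3 and those of CDH1 at 1.54 to 3.18. KRT8 and KRT18 had 0 counts, KRT5 and KRT7 had counts in shCtrl replicate 1 only, and the 7 epithelial markers summed to 35.6 and 18.7 in the controls and 12.7 and 12.03 in the knockdown. The immune, endothelial and fibroblast markers PTPRC, PECAM1, COL1A1 and COL1A2 had 0 counts throughout. The luminal marker ESR1 had 13 and 5 counts in the controls and 3 and 1 in the knockdown.

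BTAF1, TAF2 and TAF1 gave most of the circles. BTAF1, an ATPase that removes TBP from DNA, had 188 circles with counts. TAF2, a subunit that contacts promoter DNA near the start site, had 96. TAF1, the largest TFIID subunit and a scaffold of the complex, had 68, and TAF1B, a subunit of the SL1 factor of RNA polymerase I, had 34. The other 6 genes had between 2 and 9 each. Together the 10 genes had 993 and 1375 counts in shCtrl replicates 1 and 2 and 714 and 1042 in shHNRNPL replicates 1 and 2.

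TAF2 circles had 82 and 169 counts in shCtrl replicates 1 and 2 and 271 and 384 in shHNRNPL replicates 1 and 2. As levels these were 17.4 and 30.4 in the controls and 95.8 and 98.3 in the knockdown. Both knockdown libraries lay above both controls, and the controls were further apart from each other than the knockdown libraries were. The mean was 23.9 ± 9.20 (SD, n = 2) in the controls and 97.1 ± 1.75 (SD, n = 2) in the knockdown, a ratio of 4.07. The fitted log2 fold change of TAF2 as a host gene was 2.30 ± 0.44 (SE). It was 1.91 without shCtrl replicate 1 and 3.06 without shCtrl replicate 2.

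**Figure D1:**
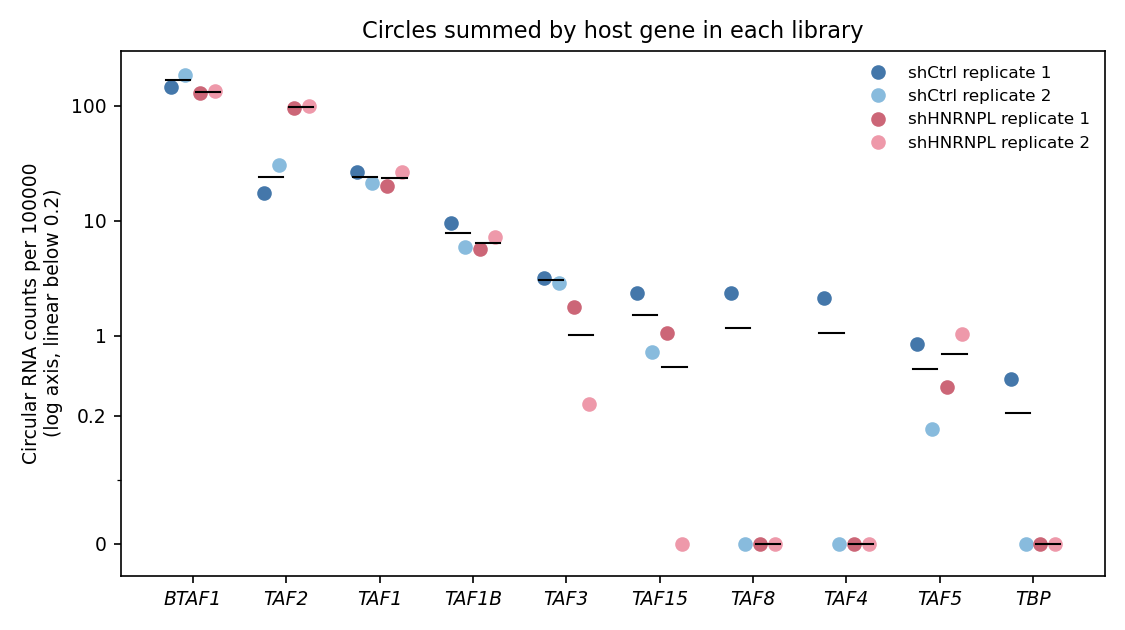
Circular RNA counts per 100000 for each of the 10 host genes in each library, on a log axis that is linear below 0.2, with points for libraries and bars for the mean of 2 replicates. TAF2 lies at 17.4 and 30.4 in the controls and at 95.8 and 98.3 in the knockdown, while the points of TAF1 and TAF1B overlap between the groups.

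TAF2 circles were ranked by mean level over all 4 libraries, so a circle that is high only in the knockdown can rank first. The 2 circles ranked first carried much of the difference, which this way of ranking favours. They lie on the minus strand of chromosome 8 within TAF2, which spans chr8:119730774-119832841 in RefSeq on GRCh38.p14. The leading circle, chr8:119788338-119797846, joined 8 exons into 1001 nt. It had 2 and 4 counts in the controls and 77 and 120 in the knockdown. Its level was 0.571 ± 0.209 (SD, n = 2) in the controls and 28.98 ± 2.47 (SD, n = 2) in the knockdown. Both control libraries were close to 0 and both knockdown libraries were far above them. The ratio of pooled rates was 50.2 (exact 95% interval 22.6 to 138), and the fitted log2 fold change was 5.57 ± 0.48 (SE).

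The second circle, chr8:119793366-119802025, joined 5 exons into 717 nt. It had 1 and 4 counts in the controls and 35 and 40 in the knockdown, again with no overlap. The ratio of pooled rates was 22.9 (exact 95% interval 9.40 to 72.7), with a fitted log2 fold change of 4.47 ± 0.57 (SE). The 2 leading circles share 4 exons of 485 nt in all and overlap over 4481 nt of the gene, but they use different back-splice sites. Each row listed more than 1 isoform, 2 for the first circle and 3 for the second, and exon numbers are those of the isoform listed first.

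Of the next 3 circles by level, 2 shared their first base with each other. The circle chr8:119758073-119791459, with 11 exons and 1491 nt, had 5 and 13 counts in the controls and 15 and 19 in the knockdown, a log2 fold change of 1.55 ± 0.52 (SE). The circle chr8:119778019-119791459, with 8 exons and 1087 nt, had 3 and 8 counts against 11 and 24, a log2 fold change of 2.25 ± 0.60 (SE). The intron circle chr8:119789747-119791323 had 6 and 9 counts against 11 and 14, a log2 fold change of 1.32 ± 0.54 (SE). As levels, all 3 were higher in both knockdown libraries than in either control, by less than the first 2 circles.

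**Figure D2:**
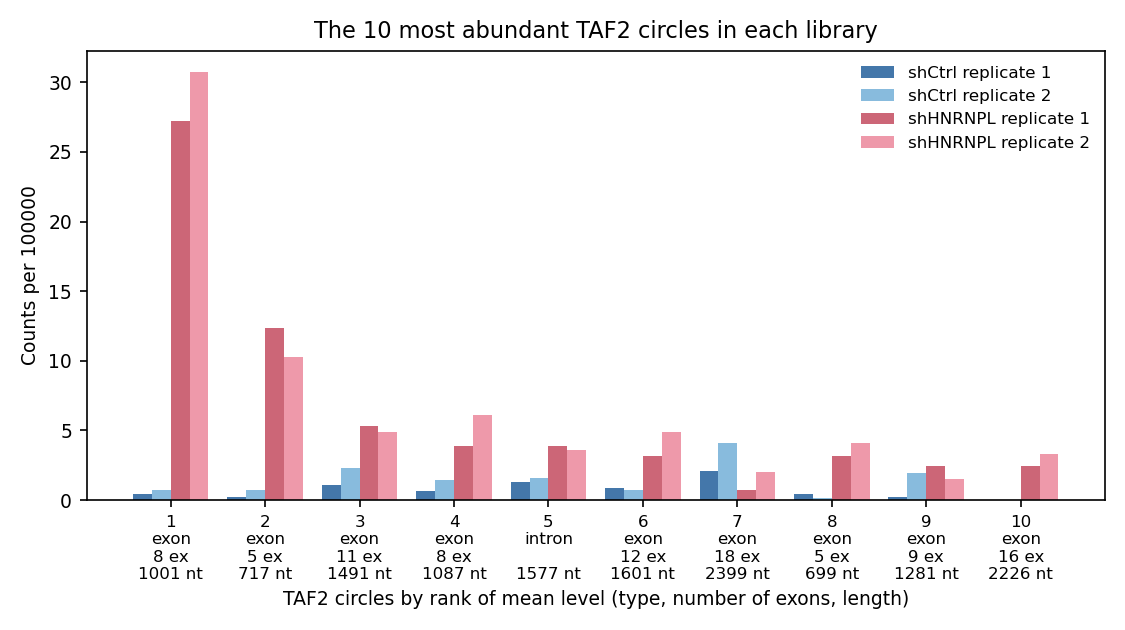
Counts per 100000 of the 10 most abundant TAF2 circles in each of the 4 libraries, labelled by type, number of exons and length. The leading circle averages 0.571 in the controls and 28.98 in the knockdown, whereas the seventh, of 18 exons, averages 3.12 in the controls and 1.38 in the knockdown.

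Not every TAF2 circle was higher in the knockdown. The following 2 circles were singled out after their values were seen. The longer one, chr8:119778019-119832598, covers 53.5% of the gene and joins 18 exons into 2399 nt, among them all 8 exons of the leading circle. It had 10 and 23 counts in the controls and 2 and 8 in the knockdown, for levels of 3.12 ± 1.42 and 1.38 ± 0.948 (SD, n = 2 each). Both knockdown libraries were below both controls, the ratio of pooled rates was 0.463 (exact 95% interval 0.204 to 0.962), and the log2 fold change was -1.10 ± 0.70 (SE). It was -0.50 without shHNRNPL replicate 1 and -2.05 without shHNRNPL replicate 2, and the interval leaves this spread between libraries out. The other, chr8:119778019-119819506 with 16 exons, had 0 counts in both controls and 7 and 13 in the knockdown, which is at least 4.94-fold higher than the limit of 3 counts per library allows.

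The difference was also present outside the 2 leading circles. With both left out, TAF2 circles had levels of 16.7 and 28.9 in the controls and 56.2 and 57.4 in the knockdown, a ratio of means of 2.49. The 2 leading circles together made up 3.66% and 4.73% of TAF2 counts in the controls and 41.3% and 41.7% in the knockdown. Exon circles of TAF2 differed by a ratio of 4.43 and its intron circles by 1.62. The 80 TAF2 circles with fewer than 10 counts each summed to 10.1 ± 1.72 in the controls and 20.3 ± 1.25 in the knockdown (SD, n = 2 each).

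By the length recorded for each row, shorter TAF2 circles accounted for most of the difference. The leading circle also listed an isoform of 3081 nt and the second circle one of 2797 nt, and counts for each isoform were not available. Exon circles of up to 2000 nt had levels of 6.99 and 14.7 in the controls and 79.9 and 78.9 in the knockdown, a ratio of means of 7.31. Without the 2 leading circles the means were 9.82 ± 4.91 in the controls and 39.1 ± 1.71 in the knockdown (SD, n = 2 each), a ratio of 3.98. Those longer than 2000 nt had levels of 6.77 and 13.1 in the controls and 10.6 and 14.9 in the knockdown, and these groups overlapped. Long circles were 49.2% and 47.1% of TAF2 exon-circle counts in the controls and 11.7% and 15.8% in the knockdown. The median recorded length of a TAF2 exon circle, weighted by counts, was 1946 and 1804 nt in the controls. It was 1001 nt in both knockdown libraries, the length recorded for the leading circle. For BTAF1 the same median was 1511 and 1385 nt in the controls and 1266 and 1250 nt in the knockdown, and for TAF1 the groups overlapped, at 2795.5 and 2046 nt against 2182.5 and 2025 nt.

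Back-splice sites showed where in TAF2 the circles began and ended. Circles that share a site are not independent, and shares are of TAF2 exon-circle counts in each library. The first base at 119797846, used by the leading circle, took 6.15% and 4.52% in the controls and 35.5% and 36.6% in the knockdown. The first base at 119832598, which lies 243 nt from the 5′ end of the gene, took 15.4% and 14.8% in the controls and 1.56% and 2.19% in the knockdown. The first base at 119791459 took 29.2% and 33.5% in the controls and 23.4% and 21.6% in the knockdown. Its share was therefore lower in the knockdown while its mean level was higher, 20.7 against 6.68.

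Last bases differed in both directions. The site at 119788338 took 3.08% and 3.23% of TAF2 exon-circle counts in the controls and 31.2% and 33.9% in the knockdown, and the site at 119742534, the one nearest the 3′ end among those with at least 20 counts, took 16.9% and 16.8% against 1.56% and 1.64%. The level at 119742534 was also lower, 3.50 ± 1.66 in the controls and 1.48 ± 0.0860 in the knockdown (SD, n = 2 each), with no overlap. The site at 119778019, where the 18-exon circle ends, took 27.7% and 29.7% in the controls and 14.8% and 18.3% in the knockdown. Only the share was lower there. The mean level at this site was higher in the knockdown, 15.3 against 6.04 in the controls, with no overlap.

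**Figure D3:**
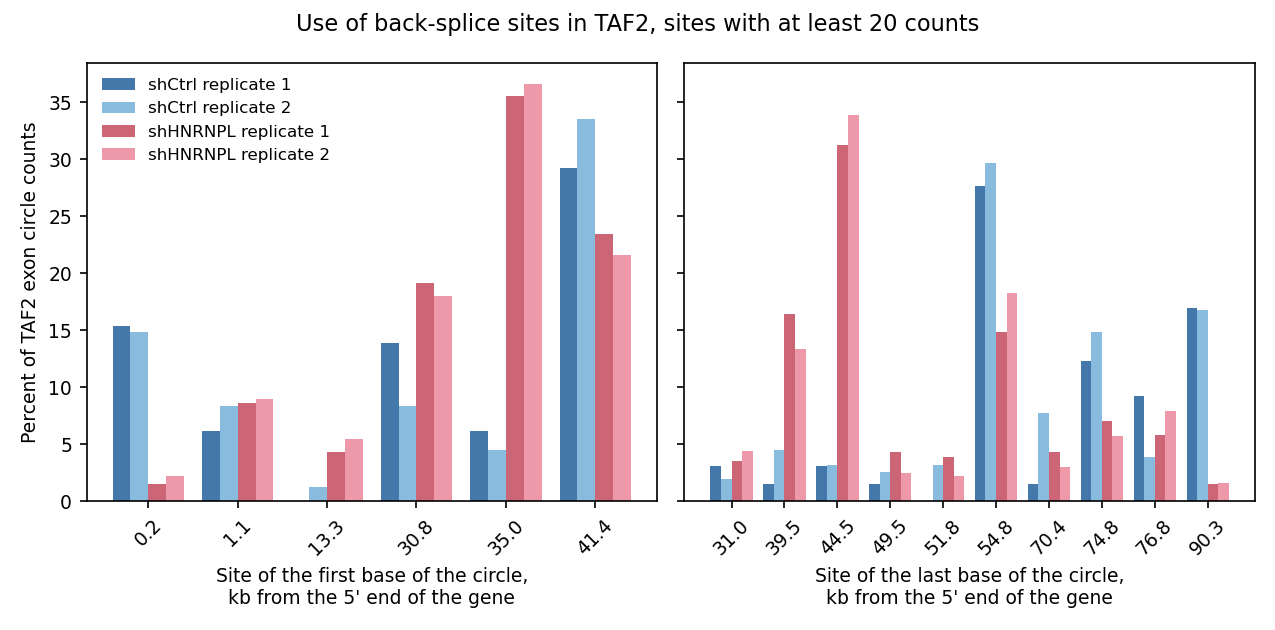
Percent of TAF2 exon-circle counts in each library at the first base (left) and the last base (right) of the circle, for sites with at least 20 counts, placed by distance in kb from the 5′ end of the gene. The tallest knockdown bars, 35.5% and 36.6% at the first base and 31.2% and 33.9% at the last, are at the sites of the leading circle.

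Coverage along the gene was taken without reference to single sites. For each point of the gene, the exon circles whose span covered it were summed. The highest level along TAF2 was 11.01 and 23.9 in the controls, at 41.5 and 44.5 kb from the 5′ end, and 69.7 and 74.5 in the knockdown, at 41.5 kb in both. The highest point was thus within the same few kilobases in all 4 libraries, but the shape around it differed. At 40 kb the levels were 6.99 and 12.2 in the controls and 48.5 and 54.3 in the knockdown. At 45 kb the controls stayed near their highest level, at 10.6 and 23.0, whereas the knockdown had dropped to 41.4 and 41.7. The peak of BTAF1 was at 73 kb in all 4 libraries, at 117 and 153 in the controls and 94.8 and 101 in the knockdown.

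**Figure D4:**
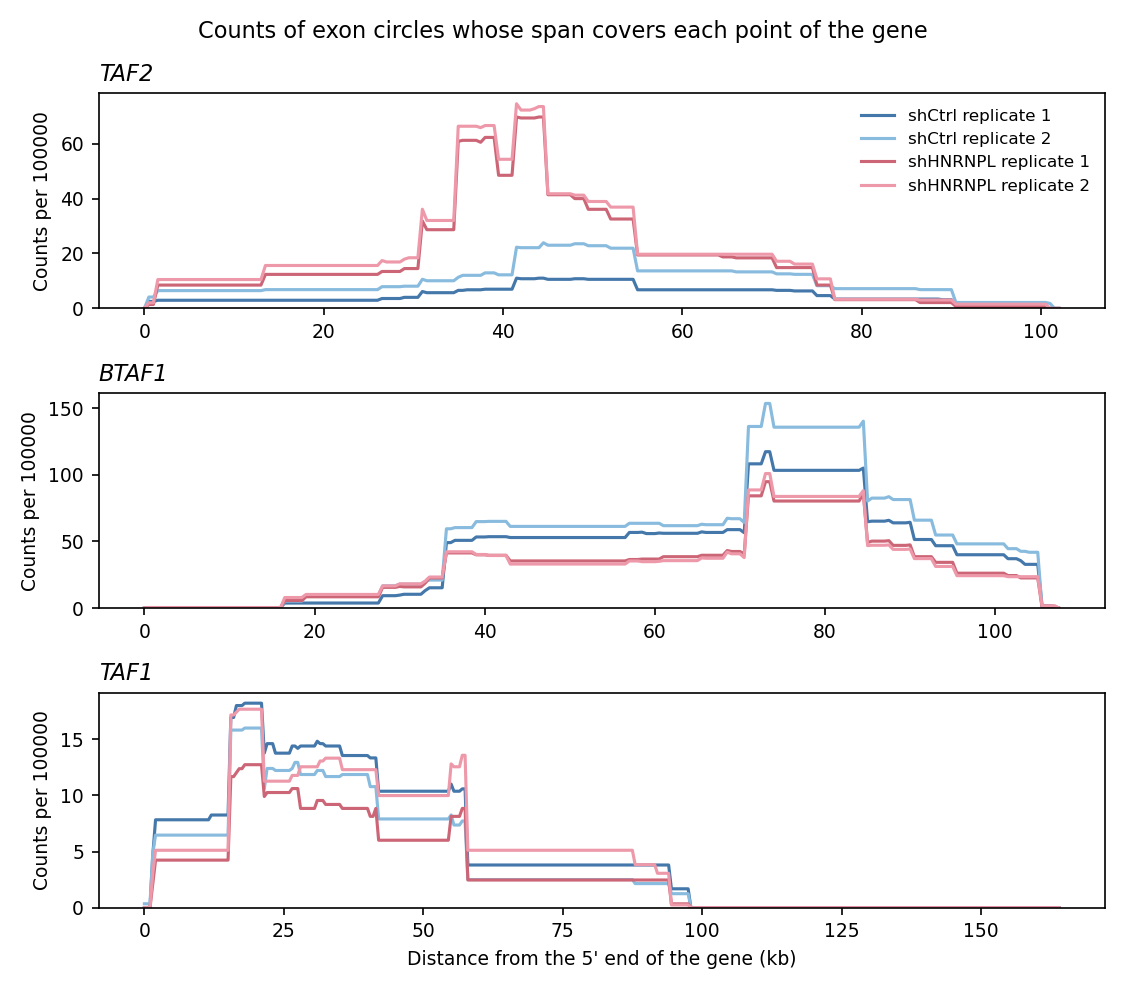
Counts per 100000 of exon circles whose span covers each point of TAF2, BTAF1 and TAF1, by distance in kb from the 5′ end of the gene, with 1 line for each library. The TAF2 peak is 11.01 and 23.9 in the controls and 69.7 and 74.5 in the knockdown, and the BTAF1 profile keeps its peak at 73 kb in all 4 libraries.

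BTAF1, with the most circles of the set, did not share the TAF2 pattern. It had 687 and 1033 counts in the controls and 361 and 522 in the knockdown, for levels of 165.5 ± 28.4 and 130.7 ± 4.23 (SD, n = 2 each). Both knockdown libraries lay below both controls in level, as did 36.7% of all host genes with at least 10 counts. The fitted log2 fold change was -0.05, and edgeR's quasi-likelihood test with Benjamini-Hochberg adjustment gave an adjusted p of 0.967. Against the median log2 fold change over all host genes tested, -0.26, BTAF1 stood slightly higher.

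The leading BTAF1 circle, chr10:91994535-92008275 on the plus strand, joined 4 exons into 614 nt. It had 156 and 258 counts in the controls and 75 and 118 in the knockdown, a log2 fold change of -0.51 ± 0.33 (SE, edgeR's adjusted p = 0.461). Its first base took 37.9% and 40.6% of BTAF1 exon-circle counts in the controls and 35.8% and 39.4% in the knockdown, so these overlapped between the groups. A long BTAF1 circle was singled out after its values were seen because it spans 64.7% of the gene. This circle, chr10:91959218-92028929 with 30 exons and 4621 nt, had 87 and 142 counts in the controls and 30 and 37 in the knockdown, a log2 fold change of -1.16 ± 0.35 (SE, edgeR's adjusted p = 0.233). Its level was lower in both knockdown libraries, and the difference did not pass the test, although DESeq2 called it. Another BTAF1 circle, chr10:91962538-92014029, had a larger fitted log2 fold change, -3.07, and did not pass the test either. The filter of 5 counts in 2 libraries called it, as it did 11.99% of all circles. Of the 41 BTAF1 circles tested, 22 had log2 fold changes below 0 and 19 above. The ratio of TAF2 to BTAF1 counts was 0.119 and 0.164 in the controls and 0.751 and 0.736 in the knockdown.

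TAF1 levels overlapped between the groups. It had 126 and 119 counts in the controls and 57 and 103 in the knockdown, for levels of 24.03 ± 3.74 and 23.3 ± 4.39 (SD, n = 2 each). The fitted log2 fold change was 0.28 with an adjusted p of 0.735 by edgeR's quasi-likelihood test with Benjamini-Hochberg adjustment, and scaling by library size alone turned it to -0.064. The leading TAF1 circle, chrX:71381743-71387461 with 7 exons and 1067 nt, had 15 and 24 counts in the controls and 5 and 22 in the knockdown. Of the TAF1 rows, 16 also named Metazoa_SRP, a signal recognition particle RNA gene, and their counts cannot be assigned to one gene.

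TAF1B, too, showed no separation. It had 45 and 33 counts in the controls and 16 and 28 in the knockdown, with levels of 7.73 ± 2.54 and 6.41 ± 1.07 (SD, n = 2 each) and a log2 fold change of 0.08 (adjusted p = 0.951, edgeR). By library-size scaling the fold change was -0.29. Its leading circle, chr2:9845220-9934154, covers 97.8% of the gene and joins 14 exons into 1919 nt, with 3 and 13 counts in the controls and 2 and 5 in the knockdown.

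The remaining subunits gave few circles. TAF3, which carries a domain that binds trimethylated histone H3, had 15 and 16 counts in the controls and 5 and 1 in the knockdown, and 75.7% of its counts were in intron circles. Its log2 fold change was -1.34 with an adjusted p of 0.555 by edgeR, and it was -3.09 without shHNRNPL replicate 1 and -0.47 without shHNRNPL replicate 2. TAF15, an RNA-binding protein of the FET family found with TFIID, had 11 and 4 counts against 3 and 0. TAF5, a core subunit with WD40 repeats, had 4 and 1 counts against 1 and 4. Levels of TAF15 and TAF5 overlapped between the groups, and 4 of the 6 TAF15 rows also named another gene. TAF3 was lower in both knockdown libraries without passing the test, and 36.7% of all host genes with at least 10 counts were lower in the same way.

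TAF8, TAF4 and TBP were seen in a single library. TAF8, a histone-fold subunit that binds TAF2, had 11 counts, TAF4, a core scaffold subunit, had 10, and TBP had 2, all of them in shCtrl replicate 1, the library with the high share of intron circles. All TAF4 and TBP counts were in intron circles. At this depth, circles of these 3 genes were not detectable in the other 3 libraries. The adjusted p was 0.495 for TAF8 and 0.503 for TAF4 (edgeR), and TBP had too few counts to test.

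Because longer genes can give more circles, levels of different genes were compared for each 100 kb of RefSeq gene span. In the controls these were 153.7 ± 26.4 for BTAF1, 23.4 ± 9.01 for TAF2, 14.6 ± 2.28 for TAF1 and 8.49 ± 2.80 for TAF1B (SD, n = 2 each). The difference between TAF2 and TAF1 there was smaller than the SD of TAF2. In the knockdown the same values were 121.4 ± 3.93, 95.1 ± 1.72, 14.2 ± 2.68 and 7.05 ± 1.17 (SD, n = 2 each), in the same order. The other 6 genes had means below 5 in both groups and were not ordered among themselves.

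Across the single circles, no member passed the test. Of 67 member circles tested, 0 had an adjusted p under 0.05 by edgeR's quasi-likelihood test, as for all 21576 circles tested (0%). At an unadjusted p under 0.05, 11 were higher and 2 lower, where the shares over all circles were 9.42% and 4%. Of these 11, 9 were TAF2 circles, from which nothing is read, since TAF2 was chosen on this contrast. Outside TAF2, DESeq2 called 1 of 31 member circles, where it called 9.46% of all circles to which it gave an adjusted p. By edgeR, 5 of 45 member circles outside TAF2 were called without shCtrl replicate 1 and 7 of 39 without shCtrl replicate 2, where 28.1% and 43.2% of all circles were called.

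Groups without overlap were counted as well. Of 41 BTAF1 circles tested, 8 (19.5%) were higher in both knockdown libraries than in either control and 12 (29.3%) were lower, where all circles with at least 10 counts gave 23.2% and 22.9%. TAF1 had 3 higher and 3 lower of 9, and TAF2 had 12 higher and 2 lower of 16. The median log2 fold change was -0.12 for BTAF1, 0.01 for TAF1 and 2.28 for TAF2, beside -0.39 for all circles tested.

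**Figure D5:**
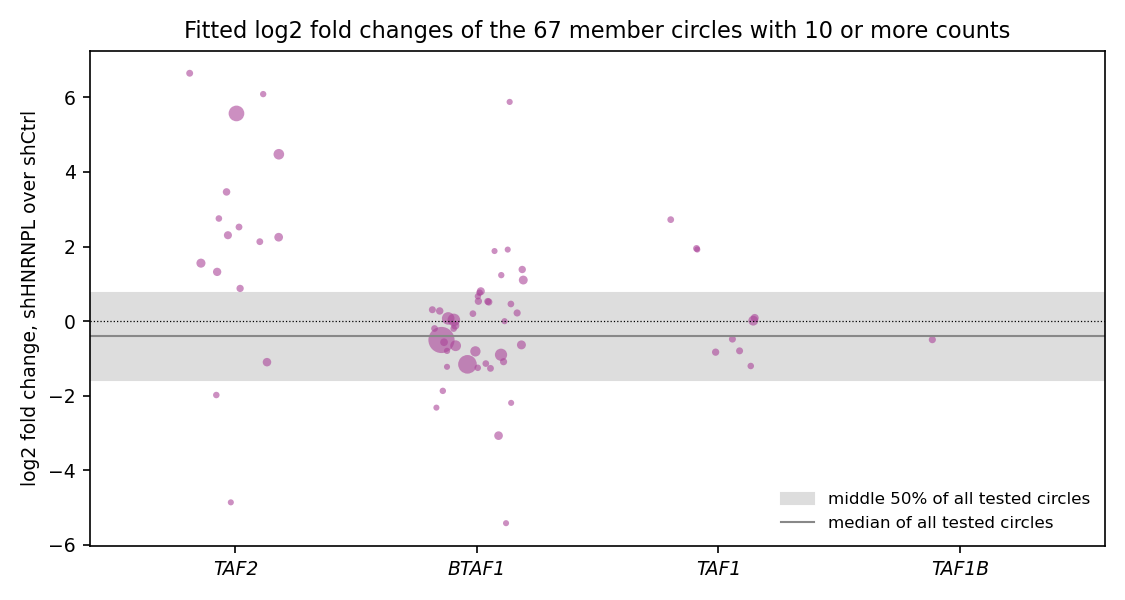
Fitted log2 fold changes (shHNRNPL over shCtrl) of the 67 member circles with at least 10 counts, by host gene. Point area rises with the counts summed over all libraries, and a band marks the middle 50% of all tested circles. Most TAF2 points lie above 0, with a median of 2.28, while BTAF1 points lie on both sides, with a median of -0.12.

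At the level of host genes, 0 of the 8 members tested apart from TAF2 passed by edgeR's quasi-likelihood test, where 0.442% of all host genes passed, all of them higher. At an unadjusted p under 0.05 none of these 8 passed, and DESeq2, which gave an adjusted p to 3 of them, called none, where it called 5.53% of all host genes with one. Without shCtrl replicate 2, TAF4 and TAF8 were called, as were 36.3% of all host genes, their counts all being in shCtrl replicate 1. Whether circles of a gene changed unequally was tested with edgeR's diffSpliceDGE, in which 3.97% of genes passed. BTAF1, with 41 circles, had an adjusted p of 0.168 and TAF1, with 9, had 0.410. BTAF1 passed without shCtrl replicate 1, without shCtrl replicate 2 and when circles needed at least 40 counts, where 44.9%, 46.5% and 15.1% of all genes passed, and it did not pass when a knockdown library was left out.

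Circles of the set were long. Exon circles of the members had a median of 12 exons and 1758.5 nt, against 6 exons and 1248 nt over all exon circles with counts. The splice motif AG-GT with no offset was recorded for 86.4% of the members' exon circles and 64.5% of all. Of 83 intron circles with counts, 63 were seen in 1 library, 45 of these in shCtrl replicate 1.

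The summed level of the members without TAF2 was 192.8 and 216.7 in the controls and 156.7 and 168.5 in the knockdown. With TAF2 it was 210.2 and 247.0 against 252.5 and 266.8. TAF2 made up 8.26% and 12.3% of member counts in the controls and 37.96% and 36.9% in the knockdown, and BTAF1 made up 69.2% and 75.1% against 50.6% and 50.1%.

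Other genes of the initiation machinery were taken from 4 lists of 89 genes, of which 66 had counts and 44 had enough to test. None passed in either direction by edgeR's quasi-likelihood test or among the 22 to which DESeq2 gave an adjusted p, and at an unadjusted p under 0.05, 6 were higher and 4 lower, where the shares over all host genes were 7.58% and 6.17%. By edgeR, 10 of 36 passed without shCtrl replicate 1, where 25.2% of all host genes did, and 18 of 42 passed without shCtrl replicate 2, where 36.3% did. The median log2 fold change over the 44 was 0.24, beside -0.26 for all host genes. The genes named next had the most counts in their list.

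Among the other TFIID subunits and paralogs, 7 of 13 were tested. TAF4B, a paralog of TAF4, had 18 and 37 counts in the controls and 27 and 38 in the knockdown, and TBPL1, a relative of TBP, had 19 and 15 against 18 and 36. Their log2 fold changes were 1.15 and 1.55. TAF12, a histone-fold subunit, had 26 and 18 counts against 8 and 7, a log2 fold change of -0.59. TAF1L, a near-identical copy of TAF1, had 0 counts, and how reads were divided between the copies was not tested.

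For the complexes that share TBP or TAFs, 13 of 24 genes were tested. TRRAP, the large scaffold of the SAGA coactivator, had 121 and 186 counts in the controls and 125 and 175 in the knockdown, with a log2 fold change of 0.88 and an adjusted p of 0.340 by edgeR. SUPT20H of SAGA and TAF1A of SL1 had log2 fold changes of 0.87 and 0.22. As levels, TRRAP and SUPT20H were higher in both knockdown libraries than in either control, as were 15.3% of all host genes with at least 10 counts, whereas TAF1A overlapped.

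The general factors of RNA polymerase II had 11 of 19 tested. GTF2A1, a subunit of TFIIA, had levels of 16.3 in both controls and 7.78 and 8.19 in the knockdown, with a fitted log2 fold change of -0.72. GTF2H3, a subunit of TFIIH, and TCEA1, an elongation factor, had log2 fold changes of 1.21 and 0.82.

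In Mediator, the coactivator that bridges activators and the polymerase, 13 of 33 were tested. MED13, of its kinase module, had levels of 133.6 and 178.1 in the controls and 167.3 and 165.7 in the knockdown, which overlapped. MED13L and MED14 had log2 fold changes of -0.92 and -0.55.

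The host genes whose circles had the pattern most like TAF2 were found among 4763 others with at least 40 counts. Likeness was the Euclidean distance between log2 levels, with 0.5 added and each gene centred on its mean, over the 4 libraries. STXBP3 was nearest at 0.0312, with 7, 16, 29 and 40 counts in the order shCtrl 1, shCtrl 2, shHNRNPL 1 and shHNRNPL 2. CASD1 followed at 0.0533 and RNASEH2B at 0.119, while the median distance was 2.59. No other member was near, TAF1 being at 2.26, BTAF1 at 2.41 and TAF1B at 2.50.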

How the data were processed

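The labels' protocols describe reverse transcription with Induro, phi29 amplification and nanopore sequencing of total RNA. The authors deposited whole-number read counts for each back-splice position, not normalized, with CIRI-long named in the rows. The build, GRCh38.p14, is from the submitters' processing notes, and the caller's version is not given in the sources used here. Counts per 100000 were computed here. A row naming several genes counted for each, so overlapping genes are uncertain.

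Circles and host genes with at least 10 counts over the 4 libraries were fitted with edgeR 4.0.16 (TMM, quasi-likelihood test, Benjamini-Hochberg over all features) in R 4.3.3. The host gene fit and the test of unequal use were first tried on simulated data, but the fit of single circles was not. The spread simulated for unequal use was smaller than that of the circles here. Alternatives used DESeq2 1.42.0, other scalings, filters and left-out libraries. P-values measure the spread between 2 cultures a group. All members were named, with the leading circle of each and the 5 leading TAF2 circles. In the other lists, genes passing the threshold were to be named, otherwise the 3 with the most counts. The members, lists and tests were chosen with earlier results of these data known. Replicate numbers were taken as names, since same-numbered libraries deviated together only weakly (correlation 0.0706 over 4944 circles).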

Additional observations from a re-analysis of the deposited data

How the results depend on the processing

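Depth limited most members, since 346 of the 413 circles with counts had fewer than 10. Counts of calls below include TAF2, which was chosen on this contrast, so nothing is read from its calls. No member circle passed with TMM, with library-size scaling or with the newer dispersion method. With DESeq2 5 passed (9.46% of all circles), without a count filter 2 (0.248%), under the filter of 5 counts in 2 libraries 8 (11.99%), with the replicate block 7 (7.66%) and with exon circles only, a setting chosen after seeing the data, 3 (2.79%). Outside TAF2 these were 1, 0, 1, 1 and 0. Leaving out 1 library gave 0 to 18, the highest without shCtrl replicate 2 (43.2% of all circles) and 14 without shCtrl replicate 1 (28.1%).

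Of member host genes, 0 passed in the main setting, and 1, TAF2 alone, with library-size scaling, DESeq2, no filter, 5 counts in 2 libraries, the replicate block, 1-gene circles or exon circles only, where 0.692% to 5.53% of all host genes passed. Leaving out 1 library gave 0 to 3, the highest without shCtrl replicate 2 (36.3% of all host genes). In the test of unequal use, the count was 1 (TAF2 alone) in the main setting and with the replicate block, 2 with at least 40 counts (BTAF1 added; 15.1% of all genes) and 0 to 2 with 1 library left out. Of the other initiation genes, 0 passed, 1 (MED17) with the replicate block (4.37% of all host genes), and 0 to 18 with 1 library left out. The cause of these changes was not tested.

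The TAF2 log2 fold change of 2.30 ranged from 1.91 to 3.06 with 1 library left out, and the difference in the share of the leading TAF2 circle of 27.4 percentage points from 26.01 to 28.8. The difference in summed member level of 31.1 was 18.9 per 100000 exon circle counts and ranged from 12.6 to 49.5 with 1 library left out. Directions reversed for TAF1 (-0.064) and TAF1B (-0.29) with library-size scaling, and for the leading TAF1 circle with that scaling (-0.13), no filter (-0.12), the replicate block (-0.11) and exon circles only (-0.011). With 1 library left out, log2 fold changes ranged from -0.27 to 0.42 for BTAF1, -0.12 to 0.37 for TAF1B, -1.06 to 0.66 for the leading TAF1 circle and -0.99 to 0.42 for that of TAF1B. Library-size scaling moved the median of all host genes from -0.26 to -0.60. Of 221 alternative values for named genes and circles, 196 were rated the same, 11 reversed, 12 stronger and 2 moved. Stronger meant that the threshold was passed where the main value had not passed it, and moved meant a TAF2 circle outside the SE. For TAF2 circles the same meant within the SE of the main value, whether or not the circle was called. For the other genes and circles it meant the same direction and side of the threshold, so an uncalled value that stayed uncalled in the same direction was rated the same.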

Other observations

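Antisense circles naming a member were left out of all values above. The 24 rows held 26 and 9 counts in shCtrl replicates 1 and 2 and 5 and 1 in shHNRNPL replicates 1 and 2. As levels these were 5.50 and 1.62 in the controls and 1.77 and 0.256 in the knockdown, which overlapped. Antisense circles of all genes made up 6.79% of counts in shCtrl replicate 1 and 2.38% to 2.69% in the others. For TAF2, antisense circles had 0 and 2 counts in the controls and 1 in each knockdown library.

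Among the initiation genes outside the naming rule, 3 were picked after their values were seen. MED17, of the Mediator head, had 33 and 31 counts in the controls and 40 and 58 in the knockdown, a log2 fold change of 1.53 ± 0.37 (SE, adjusted p = 0.153 by edgeR's quasi-likelihood test). GTF2E1, a subunit of TFIIE, had 58 and 67 counts against 12 and 14, a log2 fold change of -1.33 with an adjusted p of 0.239. USP22, the deubiquitinase of SAGA, had 36 and 16 counts against 2 and 2, a log2 fold change of -2.71 with an adjusted p of 0.220. None passed the test. As levels the groups did not overlap for any of the 3, as for 15.3% (higher) and 36.7% (lower) of all host genes.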
